A study of Mus musculus with 34 samples.

Results

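Krt19, Krt7, Krt8, Sox9, Spp1, Cd24a and Prom1 are 7 genes used as markers of bile duct cells and of liver progenitor cells. They were followed here across mouse liver tumors driven by c-Myc, by TGFα or by both, and across livers in which the transgene had been switched off. The members were taken by gene symbol, so that every probe carrying one of the 7 symbols was included: 12 of the 41174 probes on the array. All 12 passed the filter on dim probes, as did 31544 probes in all.

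Bile ducts are lined by cholangiocytes, epithelial cells whose cytoskeleton is built from the keratins 7, 8, 18 and 19, while hepatocytes normally make only keratins 8 and 18. Hepatocytes and cholangiocytes arise from a common fetal precursor, and after liver injury cells that carry duct markers together with progenitor surface antigens can spread out from the portal tracts. For this reason the markers are used to describe how far a liver tumor resembles hepatocytes, ducts or a less differentiated state.

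Total RNA of each sample was labelled with Cy3 and hybridised to a 2-colour 60-mer oligonucleotide array against a Cy5-labelled pool of normal C57BL/6 liver from both sexes. The samples labelled Myc tumor were 7 end-stage tumors carrying a c-Myc transgene, and 3 livers each were taken 4 and 12 weeks after that transgene was turned off with doxycycline. The TGFα/Myc samples carried both transgenes and comprised 3 end-stage tumors, 3 livers at 4 weeks off and 3 at 12 weeks off, and the TGFα samples had the same layout with 3, 3 and 3. The controls were 3 normal livers without a transgene, which gave 34 arrays in 10 groups. Every sample is labelled a biological replicate, and the sources used here do not give the promoter of the transgenes, the sex or the age of the mice. Values are log2 of sample over reference after background correction and loess, so that 0 means the level of the pooled liver, and differences between groups were tested with limma over all 31544 kept probes with Benjamini-Hochberg adjustment at 0.05.

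Some arrays gave signals that their labels do not account for, which does not show that a label is wrong. On slide 5, replicate 1 of TGFα off 4 weeks and the tumors TGFα 2 and 3 had another reference profile, so these arrays were left out of the fit, which leaves 31 arrays, and are described at the end. On the 31 arrays, Myc probe A_52_P278549 read 3.55 on the array labelled TGFα tumor 1, which carries no c-Myc transgene by its label. The same probe read 0.10 on the array labelled Myc tumor 5 and 0.07 on the array labelled TGFα/Myc tumor 3, against 2.68 to 4.66 in the other 6 Myc tumors, 1.67 and 3.03 in the other TGFα/Myc tumors and -0.09 to 0.50 in controls. Myc probe A_52_P108346 read 3.28 (saturated) on TGFα tumor 1, 1.04 on Myc tumor 5 and 0.83 on TGFα/Myc tumor 3. It read 0.13, 0.17 and -1.07 in controls and 2.50 (saturated) to 6.25 in the other Myc tumors. Myc probe A_51_P102096 read 1.37 on TGFα tumor 1, against -0.96 to 0.43 in Myc tumors and -0.54 to 0.16 in controls. The probes for Tgfa did not set the TGFα groups apart, and the sources used here do not say if these probes match the transgene. Between 43.7% and 71.8% of probes were well above background per array. A second scanner read Myc tumors 2 to 7, on 4 scan days that held no other group, so for these 6 tumors scan and group cannot be told apart. Slides were shared within other groups too. All arrays of TGFα/Myc off 12 weeks were on slide 7 and all of TGFα off 12 weeks on slide 8. The arrays of TGFα off 4 weeks in the fit were both on slide 6.

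Sox9 and Cd24a carried most of the differences below, and their probes are shown because the 3 Sox9 probes did not behave alike. Sox9 lies at chr11:112782210-112787757 and Cd24a at chr10:43579169-43584265 (RefSeq, GRCm38.p6). The first 30 of the 60 bases are printed, 5′ to 3′, as the array files give them, and the place of a probe within its gene was not determined here.
Cd24a A_52_P244193: cttggttctaccgtaagtttttccaatttc
Sox9 A_52_P214630: ataaaaccttaaagcgttcttataatatgg
Sox9 A_52_P577484: ttccaggagagagactttaagactttgtct
Sox9 A_51_P451606: actctgggcaagctctggaggctgctgaac
The Sox9 probes shared no run longer than 6 bases with each other and differed in base composition, with 30%, 43.3% and 60% G and C in the order printed. Across the 31 arrays the values of A_52_P214630 and A_52_P577484 had a correlation of 0.95, whereas those of A_51_P451606 had correlations of 0.19 and 0.20 with the other 2. Probe A_51_P451606 was well above background on 8 of 31 arrays, against 30 of 31 for A_52_P214630 and 31 of 31 for A_52_P577484. The results on Sox9 below therefore turn on the other 2.

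In Myc tumors against control livers, 4 of the 12 member probes passed the test, where 35.4% of all kept probes did, so the share of members was near the background. Cd24a was higher in Myc tumors, 2 of 3 Sox9 probes were lower, 1 of 2 Krt8 probes was higher, and no probe of Krt19, Krt7, Spp1 or Prom1 passed. Among all kept probes 19.3% were higher and 16.1% lower. A total of 6 member probes had an unadjusted p under 0.05. The share of all kept probes under this unadjusted cut was not computed, here or in the comparisons below, so these counts have no background. The median difference was -0.04 over the 12 member probes and 0 over all kept probes. The groups did not overlap at 1 of 12 member probes, that of Cd24a, against 21.3% of kept probes.

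**Figure D1:**
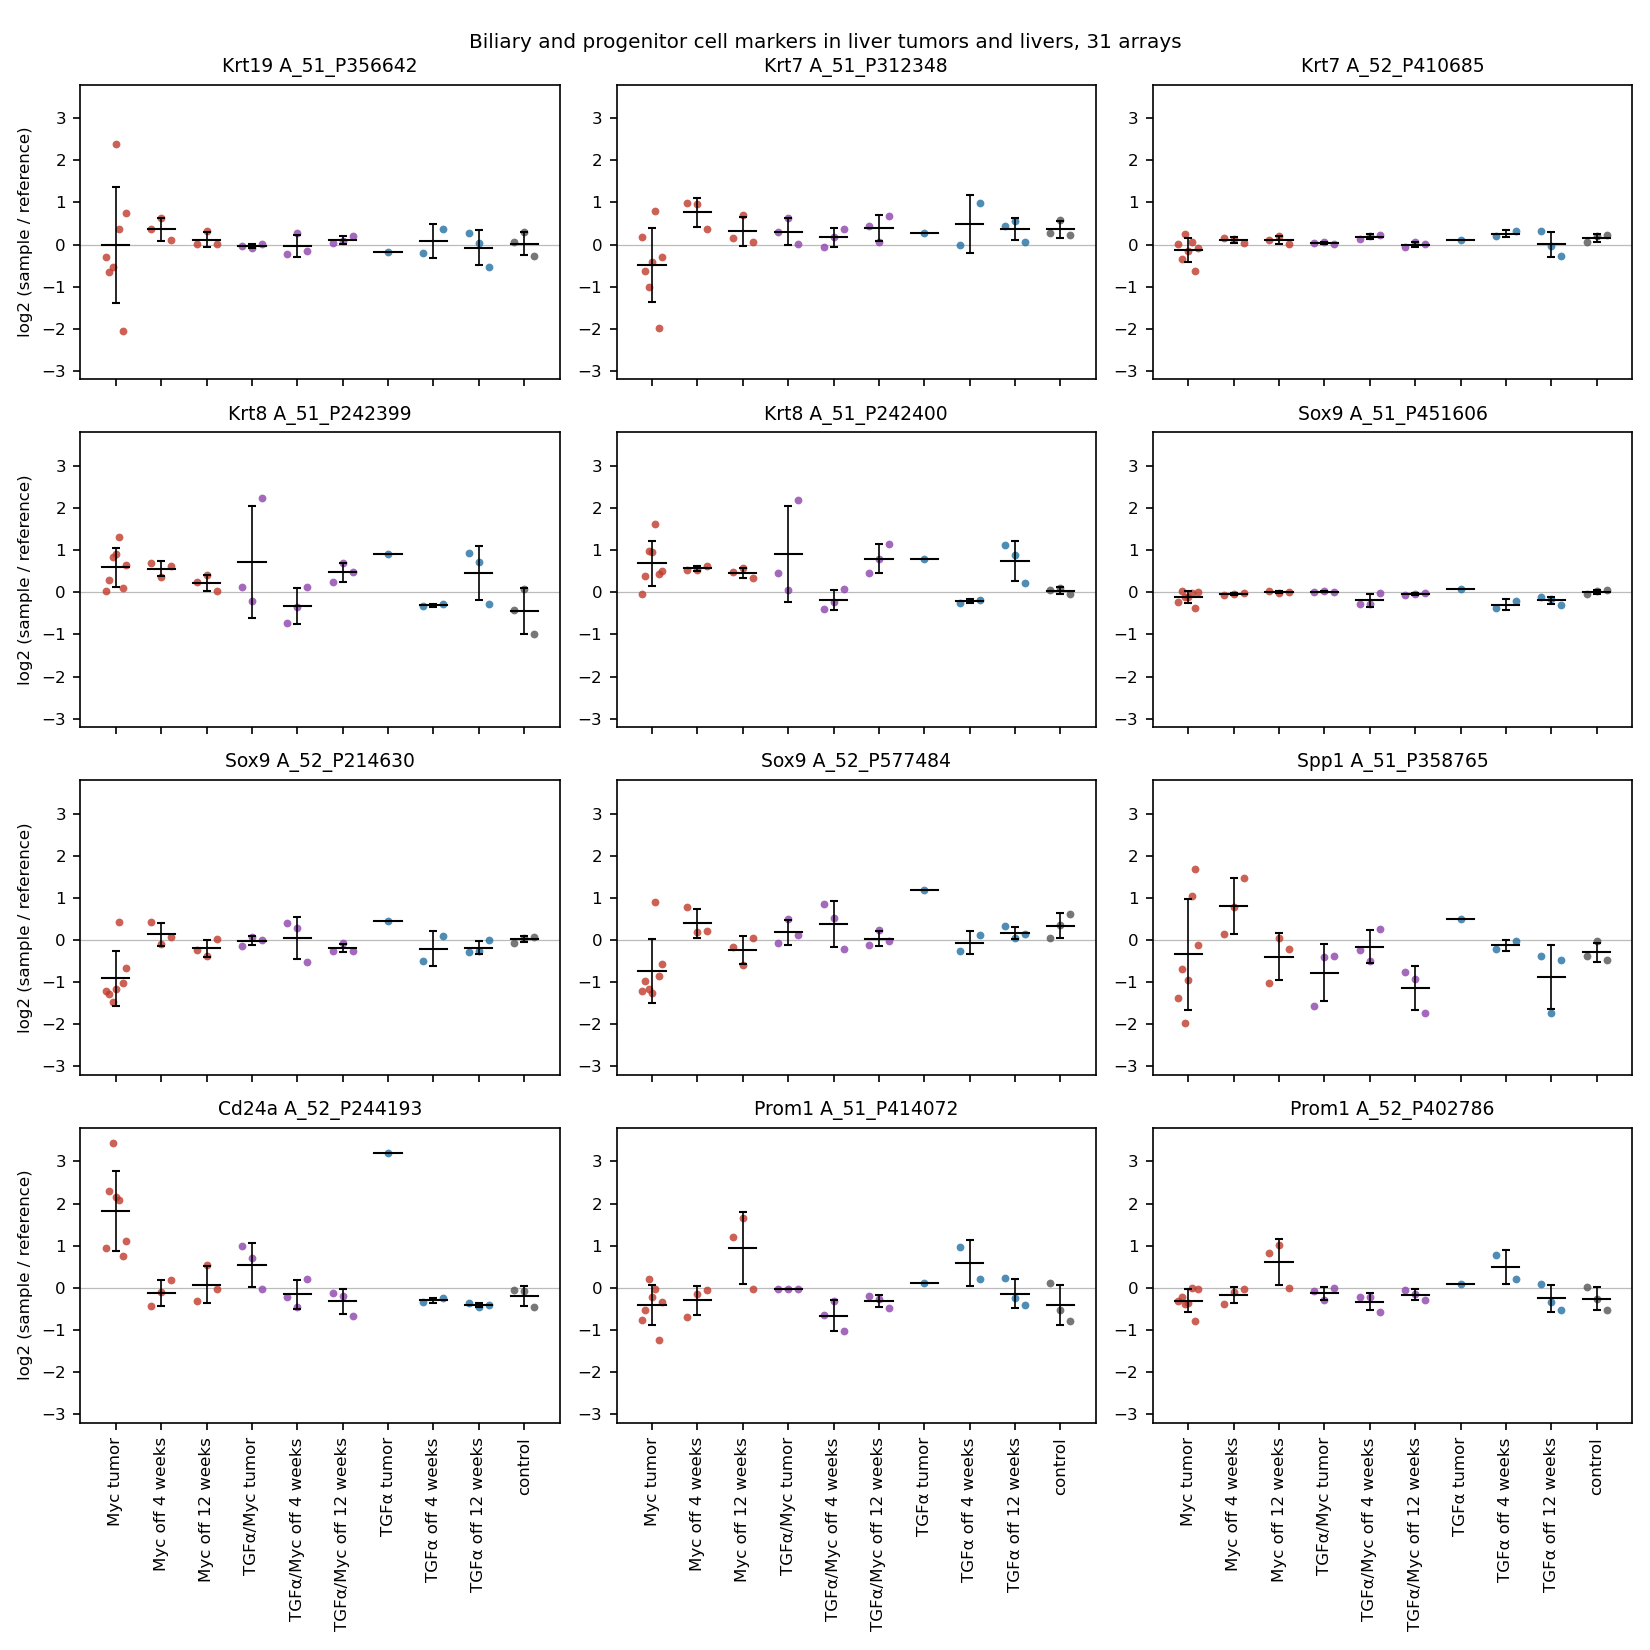
Each panel shows 1 member probe: points are arrays (31), the horizontal bar is the group mean and the error bar its SD, on a log2 scale of sample over pooled liver reference. Cd24a stands between 0.76 and 3.43 in Myc tumors and between -0.46 and -0.05 in controls, and the Sox9 probes A_52_P214630 and A_52_P577484 have 6 of 7 Myc tumors below every control.

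Cd24a encodes a small GPI-anchored surface glycoprotein found on progenitor and duct cells in liver, and also on maturing erythroid cells, neutrophils and B cells. Its values were 0.94, 2.30, 3.43, 2.16, 2.09, 0.76 and 1.12 in Myc tumors 1 to 7, against -0.05, -0.07 and -0.46 in controls. Every Myc tumor was above every control, and the tumors themselves ran from 0.76 in tumor 6 to 3.43 in tumor 3. The difference was 2.02 (SE 0.38, 95% interval 1.23 to 2.81), a 4.06-fold higher level in Myc tumors (limma adjusted p = 0.000296). Net Cy3 signals of Cd24a were 517 to 4841 in Myc tumors and 49 to 88 in controls. Myc tumors 2 to 7 were read by another scanner than the controls, so these raw signals are not directly comparable and give no fold.

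Myc tumor 1 was scanned on the same day as control 2, and between these 2 arrays the Cd24a difference was 1.01. With scan day as a fixed block, the estimate for Myc tumors against controls rests on that pair alone and had an adjusted p of 0.152 (limma). Without the arrays labelled Myc tumor 5 and TGFα/Myc tumor 3 the Cd24a difference was 1.98 (limma adjusted p = 0.000351).

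Genes of erythroid cells were also higher. A list of 13 measured erythroid genes, drawn up after the Cd24a values and the genes most like it had been seen, averaged 0.59, 1.03, 1.98, 1.25, 0.29, 0.49 and 0.52 in Myc tumors 1 to 7, against -0.35, -0.03 and 0 in controls. Of the 13, 7 were higher in Myc tumors and 0 lower, among them Slc4a1, the red cell anion exchanger (log2 difference 3.59), and Rhd, a red cell membrane protein (2.29). Neutrophil genes were also higher: 5 of 7 passed, including S100a8 (3.14) and Mpo (1.92), and the list averaged 0.31 to 2.56 in Myc tumors and 0.22 to 0.34 in controls. Of the erythroid genes, 9 to 13 were well above background in Myc tumors and 6 to 8 in controls. The part of these cells in the Cd24a signal was not tested. In these bulk samples, fewer or more cells of a type and less or more RNA per cell cannot be told apart.

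The genes whose values were most like those of Cd24a over the 31 arrays were Rhd, Tmem40 and Chil3, with Pearson r of 0.92, 0.91 and 0.91. The 31 arrays share 1 reference pool and fall into groups, so these figures describe the likeness and are not a test.

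**Figure D2:**
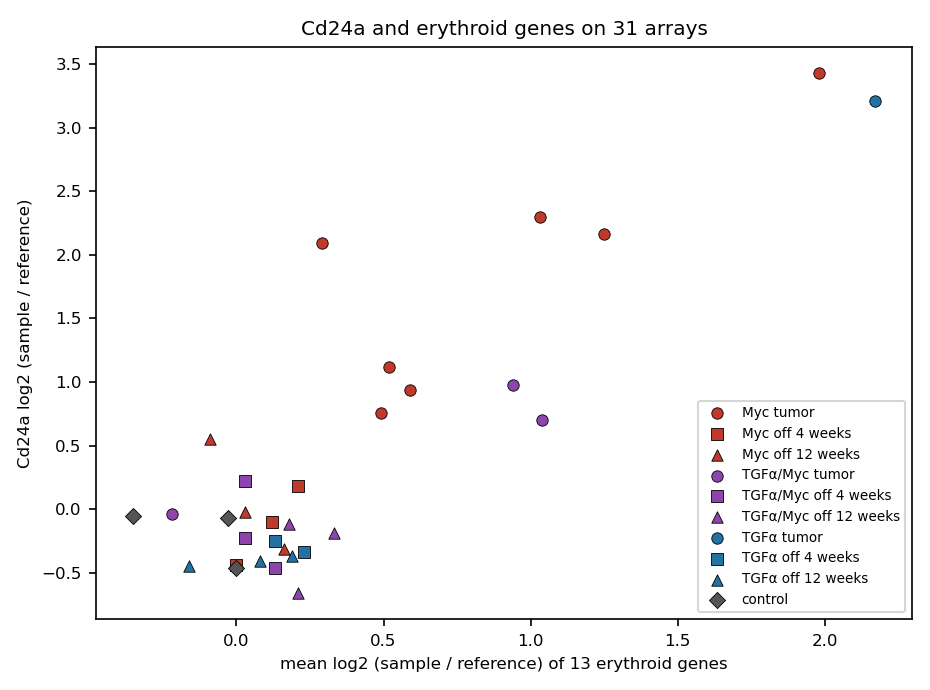
Each point is 1 of 31 arrays, with the mean log2 value of 13 erythroid genes on the horizontal axis and the Cd24a log2 value on the vertical axis, both of sample over reference; colour gives the transgene and shape the time. Myc tumor 3 (1.98 and 3.43) and the array labelled TGFα tumor 1 (2.17 and 3.21) are highest on both axes, while Myc tumor 5 had 2.09 for Cd24a at an erythroid mean of 0.29.

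Prom1 encodes prominin-1 (CD133), a membrane protein of plasma membrane protrusions that is widely used to sort liver progenitor cells. Its gene lies at chr5:43993621-44102047. Both probes were dim, with probe A_51_P414072 well above background on 18 of 31 arrays and probe A_52_P402786 on 12 of 31. On A_51_P414072 Myc tumors ran from -1.23 to 0.21 with a median of -0.34, against -0.80, -0.52 and 0.12 in controls. The difference was -0.01 (95% interval -0.64 to 0.61), and that of A_52_P402786 was -0.04 (-0.44 to 0.37). In controls each probe was well above background on 1 of 3 arrays, and a difference within these intervals was not detectable.

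Sox9 is a transcription factor of bile duct development that also marks duct-like progenitor cells. On A_52_P214630 the 7 Myc tumors read -1.21, -1.28, -1.48, -1.15, 0.44, -1.03 and -0.66, against -0.06, 0.05 and 0.08 in controls. On A_52_P577484 they read -1.21, -0.98, -1.17, -1.25, 0.91, -0.85 and -0.56, against 0.04, 0.36 and 0.63 in controls. On both probes 6 of the 7 Myc tumors lay below all controls and the array labelled Myc tumor 5 lay above them.

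The Sox9 difference was -0.94 (SE 0.27, adjusted p = 0.00936) on A_52_P214630 and -1.08 (SE 0.32, adjusted p = 0.012) on A_52_P577484, both by limma, which corresponds to 1.91-fold and 2.11-fold lower levels in Myc tumors. On A_51_P451606 it was -0.12 (adjusted p = 0.244). Without the 2 tumors of low Myc signal the first 2 differences were -1.16 and -1.35. Within scan day 1 they were -1.26 and -1.58 between Myc tumor 1 and control 2. When the sample channel was used alone, without the reference, they were -0.40 (limma adjusted p = 0.409) and -0.70 (0.172), so both calls were lost without the reference channel. They were also lost when only these 2 groups were fitted (limma adjusted p = 0.079 and 0.0894). That of A_52_P577484 was lost without control 3 (-0.94, limma adjusted p = 0.0784) and with no background subtraction (-0.99, 0.064). Net Cy3 signals on A_52_P214630, again from 2 scanners, were 2 to 533 in Myc tumors, against 56 to 63 in controls. The reference signals of the same probe were 108 to 590 on the Myc tumor arrays, against 50 to 265 on the control arrays.

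Krt8, which encodes the type II keratin shared by hepatocytes and cholangiocytes, lies at chr15:101996711-102004342 (RefSeq, GRCm38.p6). Its 2 probes were the brightest of the members, with median net Cy3 signals of 9290 and 10600. On A_51_P242399 Myc tumors read 0.04, 0.30, 0.83, 0.91, 1.32, 0.11 and 0.66, against -0.42, 0.09 and -1.0 in controls. On A_51_P242400 they read -0.03, 0.39, 0.98, 0.95, 1.61, 0.43 and 0.50, against 0.05, 0.11 and -0.05 in controls, with the spot of Myc tumor 5 saturated. Both probes were highest in Myc tumor 5, and the groups overlapped on both.

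The Krt8 difference was 1.04 (SE 0.38, limma adjusted p = 0.0339) on A_51_P242399 and 0.66 (SE 0.33, adjusted p = 0.123) on A_51_P242400. The first call depended on single arrays: without control 3 it was 0.76 (limma adjusted p = 0.217), and it also missed the threshold without control 1 or without Myc tumor 3, 4 or 5. Between Myc tumor 1 and control 2, scanned on the same day, the differences were -0.04 and -0.14, which turns the direction. Krt18, the type I partner of keratin 8, differed by 0.06 (limma adjusted p = 0.924).

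Krt7 and Krt19 are keratins of cholangiocytes that adult hepatocytes do not normally make, and they lie at chr15:101412403-101427806 and chr11:100140810-100145926. On A_51_P312348 Krt7 read 0.17, -0.63, -1.0, -0.41, 0.79, -1.98 and -0.29 in Myc tumors, against 0.27, 0.59 and 0.23 in controls. In 6 of 7 Myc tumors Krt7 was below all controls and in Myc tumor 5 above them. The difference was -0.84 (95% interval -1.59 to -0.10), short of the threshold after adjustment (limma adjusted p = 0.0709). The dimmer probe A_52_P410685 differed by -0.29 (adjusted p = 0.0856). Without the 2 tumors of low Myc signal, A_51_P312348 differed by -1.05 (limma adjusted p = 0.0108).

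Krt19 was the member with the widest spread among Myc tumors. Its single probe read -0.29, -0.64, -0.54, 2.38, 0.36, -2.06 and 0.76, against 0.05, 0.29 and -0.27 in controls. Myc tumor 4 was the highest and Myc tumor 6 the lowest of all 31 arrays, and the mean difference of -0.03 (95% interval -1.07 to 1.02) hides an SD of 1.38 among tumors against 0.28 among controls. Krt19 in Myc tumor 4 had a net Cy3 signal of 3845, against 204 in Myc tumor 5 and 299 in Myc tumor 7. The lowest net Cy3 signal among Myc tumors was -14, and the probe was well above background in 6 of the 7. The low end of this spread therefore lies at background. The genes most like Krt19 were Degs2, Scx and Cldn8, with Pearson r of 0.86, 0.85 and 0.79 over 31 arrays.

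Spp1 encodes osteopontin, a secreted phosphoprotein made by cholangiocytes and by macrophages, which binds integrins and CD44, and its gene lies at chr5:104435111-104441053. Myc tumors read -1.37, -0.68, -1.98, -0.95, 1.05, 1.68 and -0.12, against -0.37, -0.03 and -0.48 in controls. Tumors 5 and 6 were above the controls, tumor 7 was within their range and the other 4 were below it. The difference was -0.04 (95% interval -1.18 to 1.10). Of 8 measured genes for osteopontin receptors, 0 were higher in Myc tumors and 1 was lower, Itga9, an integrin alpha subunit (log2 difference -0.80, limma adjusted p = 0.00372).

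The Myc tumor with the highest value differed from marker to marker. Myc tumor 5 was the highest of the 7 in both Krt8 probes, in Krt7 on A_51_P312348 and in the 2 bright Sox9 probes, Myc tumor 4 in Krt19, Myc tumor 3 in Cd24a and Myc tumor 6 in Spp1. Over the 7 tumors, Cd24a had correlations of -0.16 and -0.03 with the bright Sox9 probes and 0.21 with Krt19. With the dim Prom1 probes it had correlations of 0.82 and 0.21 over these 7 arrays, and of 0.03 and -0.09 over the 31, all given as a description.

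After c-Myc had been off for 4 weeks, 4 of 12 member probes differed from Myc tumors, against 30.4% of all kept probes. Of these, 3 were higher and 1 lower, where 13% of kept probes were higher and 17.4% lower. Cd24a read -0.44, -0.10 and 0.18 in these livers, below all 7 Myc tumors, and its difference was -1.95 (SE 0.38, limma adjusted p = 0.000517). Sox9 read 0.43, -0.10 and 0.07 on A_52_P214630, a difference of 1.05 (SE 0.27, adjusted p = 0.00492), and 0.79, 0.19 and 0.21 on A_52_P577484, a difference of 1.13 (SE 0.32, adjusted p = 0.0104). Cd24a was thus lower and Sox9 higher than in Myc tumors, and neither passed against controls. Both Sox9 calls were lost with the sample channel alone (0.55 and 0.84, limma adjusted p = 0.213 and 0.0869). They were also lost when only the groups compared were fitted (limma adjusted p = 0.0633 and 0.0855).

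Krt7 at 4 weeks off read 0.98, 0.96 and 0.37 on A_51_P312348, higher than Myc tumors by 1.25 (SE 0.36, limma adjusted p = 0.0104). Spp1 read 0.15, 0.79 and 1.48, with a difference of 1.14 that did not pass (limma adjusted p = 0.123). It passed without Myc tumor 5 (1.38, limma adjusted p = 0.0469), without Myc tumor 6 (1.48, 0.0233) and with array weights (1.29, 0.0221). Without both tumors of low Myc signal it was at the threshold (1.38). With the replicate number as a block, which the pairing check described below did not favour, it passed too (2.15, limma adjusted p = 0.00124). In the remaining settings, and in the other fits that left out 1 array, Spp1 did not pass. The Krt8 differences were -0.04 (95% interval -0.81 to 0.74) and -0.12 (-0.79 to 0.56). The groups did not overlap at 1 of 12 member probes, Cd24a, where 21.1% of kept probes did not. The erythroid list averaged 0 to 0.21 in these livers, and 6 of its 13 genes were lower than in Myc tumors, as were 4 of 7 neutrophil genes, while 9 of 10 hepatocyte genes were higher. All 3 livers were scanned on day 1 with Myc tumor 1, and against that tumor alone the differences were -1.06 for Cd24a, 1.34 and 1.61 for Sox9, 0.61 for Krt7 and 2.18 for Spp1. Without Myc off 4 weeks replicate 1, Krt7 (1.15, limma adjusted p = 0.0601) and Sox9 A_52_P577484 (0.0855) missed the threshold, and Krt7 also did so without replicate 2 (1.15, 0.0572).

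Mesothelial cells of the liver capsule make keratin 7 as well as mesothelin. Msln, which encodes mesothelin, was the gene most like Krt7 over the 31 arrays, with a Pearson r of 0.86, followed by Nkain4 and Rspo1 with 0.85 and 0.84. The 6 measured mesothelial genes averaged -0.21 to 0.79 in Myc tumors, 0.31 to 0.81 at 4 weeks off and 0.21 to 0.37 in controls. Msln itself was higher by 2.98 at 4 weeks off than in Myc tumors (limma adjusted p = 0.00157), and its log2 difference between Myc tumors and controls was -2.11 (adjusted p = 0.0161). Between 1 and 6 of the 6 genes were well above background in Myc tumors, 6 at 4 weeks off and 2 to 5 in controls. Of the 6 genes, 2 were higher and 0 lower at 4 weeks off. The part of mesothelial cells in the Krt7 signal was not tested.

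After 12 weeks off, 4 of 12 member probes differed from Myc tumors, against 29.4% of all kept probes. Of these, 3 were higher and 1 lower, where 13.8% of kept probes were higher and 15.6% lower. Cd24a read -0.31, 0.55 and -0.02, again below all Myc tumors, with a difference of -1.75 (SE 0.38, limma adjusted p = 0.0013). In the same comparison 6 of 13 erythroid and 5 of 7 neutrophil genes were lower, and 6 of 10 hepatocyte genes were higher, and their part in the Cd24a difference was not tested. Sox9 on A_52_P214630 read -0.24, -0.38 and 0.02 and differed by 0.71 (SE 0.27, adjusted p = 0.0494), a call that was lost when any 1 of 8 single arrays was left out. That call was also lost with the sample channel alone (0.37, limma adjusted p = 0.413). On A_52_P577484 the Sox9 difference was 0.49 (adjusted p = 0.271). The groups did not overlap at 1 of 12 member probes, against 17.8% of kept probes.

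Prom1 passed at 12 weeks off and not at 4 weeks off. On A_51_P414072 the livers at 12 weeks off read 1.20, 1.65 and -0.02, against a Myc tumor median of -0.34, and on A_52_P402786 they read 0.83, 1.02 and -0.01. Replicates 1 and 2 were the 2 highest of all 31 arrays on both probes, and replicate 3 lay within the range of the tumors and was not well above background. The differences from Myc tumors were 1.36 (SE 0.30, limma adjusted p = 0.00155) and 0.92 (SE 0.19, adjusted p = 0.00103).

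Against controls, the Prom1 differences at 12 weeks off were 1.34 (95% interval 0.60 to 2.08, limma adjusted p = 0.117) and 0.88 (0.40 to 1.35, adjusted p = 0.112). Replicate 2 and control 1 shared a scan day, and between them the Prom1 difference on A_51_P414072 was 1.53. With the deposited ratios in place of the recomputed ones, the Prom1 differences from Myc tumors were 1.66 and 1.32 with adjusted p of 0.24 and 0.252 (limma), and with the deposited processed table they were 0.55 (0.803) and 0.75 (0.685). Between 12 and 4 weeks off, Prom1 differed by 1.24 (95% interval 0.51 to 1.98, limma adjusted p = 0.414) and 0.78 (0.31 to 1.26, adjusted p = 0.427), so a difference between the times did not pass. The genes most like Prom1 were Lnx1, Unc79 and Sult2a4, with Pearson r of 0.80, 0.77 and 0.76 over 31 arrays.

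**Figure D3:**
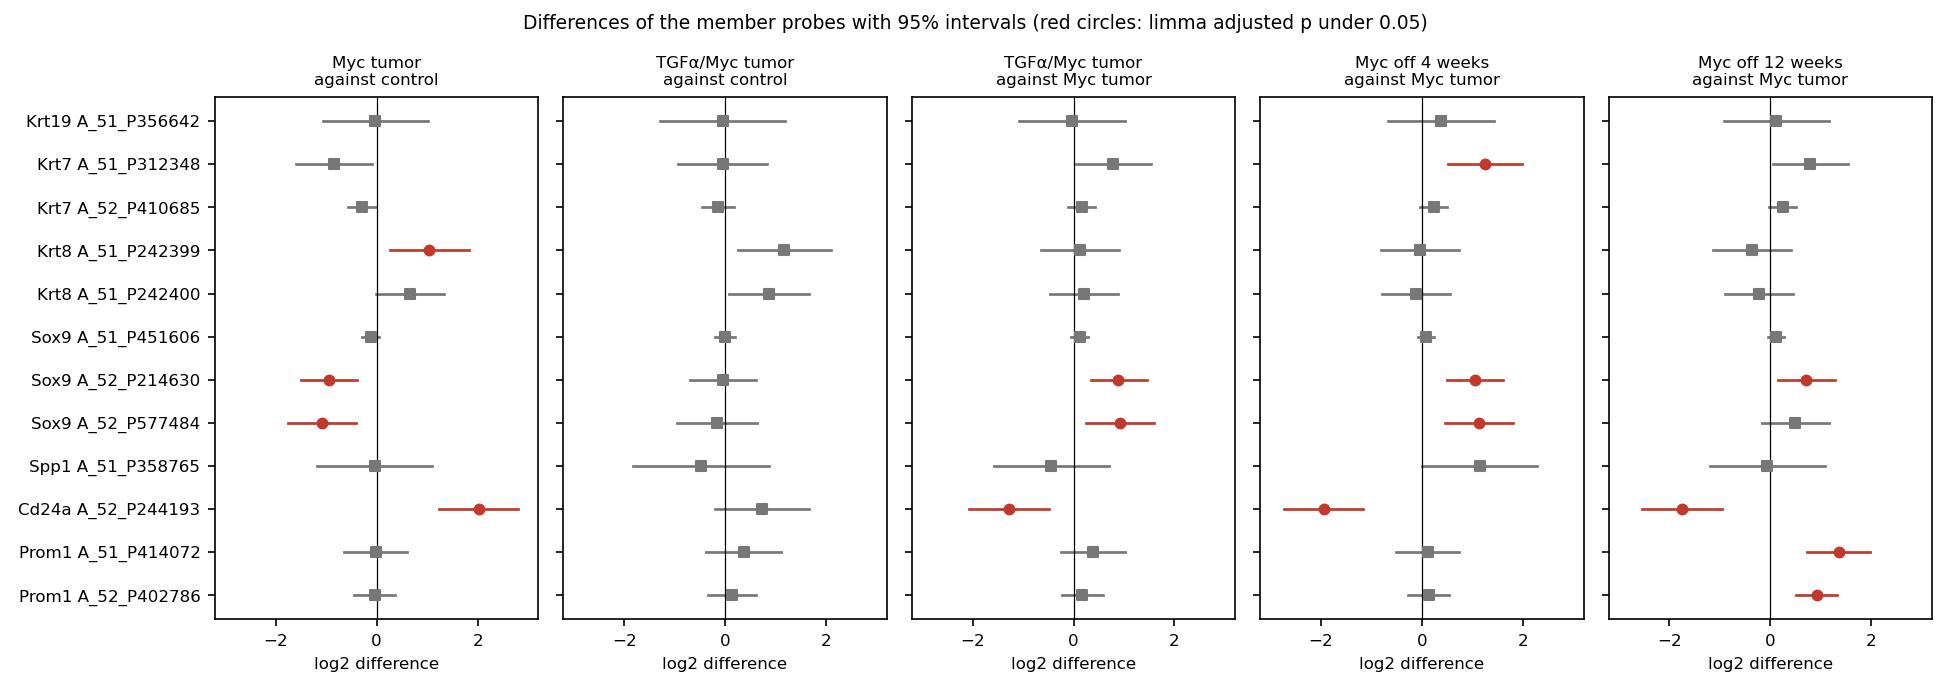
Points are log2 differences between 2 groups for each of the 12 member probes, first-named group minus second-named group, with 95% limma intervals; red circles passed the adjusted threshold of 0.05 and grey squares did not. Cd24a and the bright Sox9 probes take opposite signs in Myc tumors against control (2.02, against -0.94 and -1.08) and both turn sign in the livers 4 weeks after c-Myc was switched off against Myc tumors (-1.95, against 1.05 and 1.13).

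Tumors with both transgenes differed from controls at 0 of 12 member probes by limma, where 1.59% of all kept probes passed, and 2 of 12 had an unadjusted p under 0.05. Cd24a read 0.98, 0.70 and -0.04, against -0.05, -0.07 and -0.46 in controls, and its difference was 0.74 (95% interval -0.20 to 1.67). The groups did not overlap for Cd24a, which was 1 of 2 such member probes, against 20.6% of kept probes. Erythroid genes averaged 0.94, 1.04 and -0.22 in TGFα/Myc tumors 1 to 3, and 1 of the 13 genes was higher than in controls.

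Krt8 in TGFα/Myc tumors read 0.13, -0.20 and 2.25 on A_51_P242399 and 0.47, 0.05 and 2.20 on A_51_P242400. TGFα/Myc tumor 3 had the highest value of the 31 arrays on A_51_P242399, no order is read on A_51_P242400 because of the saturated spot of Myc tumor 5, and the other 2 tumors were near the controls. The differences from controls were 1.17 (adjusted p = 0.224) and 0.87 (adjusted p = 0.323), and without the 2 tumors of low Myc signal they were 0.41 and 0.22 (limma adjusted p = 0.687 and 0.85). Sox9 differed from controls by -0.04 (95% interval -0.70 to 0.62) and -0.16 (-0.95 to 0.63) on its bright probes, Krt7 by -0.05 (-0.93 to 0.83) on A_51_P312348, Krt19 by -0.05 (-1.29 to 1.18) and Spp1 by -0.48 (-1.83 to 0.87). On Prom1 probe A_52_P402786 no array of the TGFα/Myc groups was well above background, so no fold is given for it.

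TGFα/Myc tumors differed from Myc tumors at 3 of 12 member probes, against 23.9% of all kept probes, with 2 higher and 1 lower, where 10.8% of kept probes were higher and 13.1% lower. Cd24a was lower in TGFα/Myc tumors, with 0.98, 0.70 and -0.04, against a median of 2.09 in Myc tumors, and a difference of -1.28 (SE 0.38, limma adjusted p = 0.0171). Sox9 was higher in TGFα/Myc tumors, with -0.14, 0.08 and 0.01 on A_52_P214630, against a median of -1.15 in Myc tumors, and differences of 0.89 (SE 0.27, adjusted p = 0.0187) and 0.92 (SE 0.32, adjusted p = 0.0419) on the bright probes. In the same comparison 5 of 7 neutrophil genes and 2 of 13 erythroid genes were lower and 0 higher, and 7 of 10 hepatocyte genes were higher. Their part in the Cd24a difference was not tested. The groups overlapped at all 12 member probes, while 12.8% of kept probes showed no overlap. With the sample channel alone the calls of Cd24a (-1.17, limma adjusted p = 0.117) and Sox9 (0.34 and 0.82, 0.496 and 0.12) were lost. When only the groups compared were fitted they were lost too, with limma adjusted p of 0.161 for Cd24a and 0.142 and 0.203 for Sox9. Leaving out TGFα/Myc tumor 2 or 3 left 0 calls, with limma adjusted p for Cd24a of 0.0584 and 0.116, and Sox9 on A_52_P577484 missed the threshold in 8 of 10 fits that left out 1 array. Without both tumors of low Myc signal, Cd24a differed by -0.95 (limma adjusted p = 0.129) and Sox9 by 1.11 and 1.22 (0.000711 and 0.00116).

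Switching off both transgenes changed no member probe past the threshold by limma, with 0 of 12 at 4 weeks (6.78% of kept probes) and 0 of 12 at 12 weeks (3.57%), and 3 and 0 at an unadjusted p under 0.05. Cd24a read -0.23, -0.46 and 0.22 at 4 weeks and -0.12, -0.19 and -0.66 at 12 weeks, with differences from TGFα/Myc tumors of -0.70 (95% interval -1.64 to 0.23) and -0.87 (-1.80 to 0.07). Krt8 on A_51_P242400 read -0.40, -0.22 and 0.07 at 4 weeks, a difference of -1.09 from TGFα/Myc tumors (limma adjusted p = 0.0941). The groups did not overlap at 3 and 4 of 12 member probes, against 24.2% and 25.1% of kept probes.

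Whether the members responded differently with both transgenes than with c-Myc alone was tested as a difference of the 2 changes, and 0 of 12 passed at 4 weeks (13.6% of kept probes) and 0 of 12 at 12 weeks (2.65%) by limma, with 4 and 3 at an unadjusted p under 0.05. For Cd24a the change at 4 weeks was -0.70 with both transgenes and -1.95 with c-Myc alone, a difference of 1.25 (95% interval 0.02 to 2.47, limma adjusted p = 0.17). For Krt7 on A_51_P312348 the difference at 4 weeks was -1.39 (limma adjusted p = 0.0988), and for Sox9 it was -0.97 (0.127) and -0.92 (0.239) on the bright probes. Without Myc tumor 5 all 3 passed, with -1.60 for Krt7 (limma adjusted p = 0.0214) and -1.20 and -1.19 for Sox9 (0.00403 and 0.0117). Krt7 also passed in other settings, among them no background subtraction (-1.96, limma adjusted p = 0.0189), the deposited ratios (-2.93, 0.0275) and the sample channel alone (-1.66, 0.0351). With the replicate number as a block, Krt7 (-1.40, limma adjusted p = 0.0254), Sox9 (-1.38 and -1.31, 0.00324 and 0.0155) and Krt19 (-0.86, 0.0399) passed. The change of Prom1 on A_51_P414072 at 12 weeks differed by -1.64 (SE 0.47, limma adjusted p = 0.0568).

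No member probe passed between livers with the transgene off and controls by limma. The count was 0 of 12 for Myc at 4 and 12 weeks off (0.00317% and 0.139% of kept probes), for TGFα/Myc (5.72% and 0.0159%) and for TGFα (0.609% and 0.0222%). At an unadjusted p under 0.05, a cut at which the share of kept probes was not computed, the counts were 1 and 2 for Myc. They were 1 and 1 for TGFα/Myc, and 3 and 1 for TGFα. Between 12 and 4 weeks off, 0 of 12 passed in each of the 3 lines (0.00317% of kept probes for Myc, 1.14% for TGFα/Myc and 1.14% for TGFα), with 2, 1 and 2 at an unadjusted p under 0.05. Against controls, the groups did not overlap at 3 and 1 of 12 member probes for Myc off 4 and 12 weeks (16.1% and 19.8% of kept probes), at 0 and 5 for TGFα/Myc (25% and 25.2%) and at 4 and 2 for TGFα (36.6% and 16.2%). Between 12 and 4 weeks they did not overlap at 4, 4 and 5 of 12 for Myc, TGFα/Myc and TGFα (18.2%, 26.7% and 40.2%). The intervals were wide. For Spp1 at 4 weeks after c-Myc the difference from controls was 1.10 (95% interval -0.25 to 2.45), and all 3 livers lay above all 3 controls.

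The order of the 9 groups that kept at least 2 arrays in the fit was read from their means. For Cd24a, Myc tumors were first with 1.83 ± 0.95 (SD, n = 7), TGFα/Myc tumors second with 0.55 ± 0.52 (n = 3), and livers at TGFα off 12 weeks last with -0.41 ± 0.04 (n = 3), with overlap between every pair of neighbours. For Sox9 on A_52_P214630, Myc tumors were last with -0.91 ± 0.65 (n = 7), and the other 8 means lay between -0.20 and 0.13. For Spp1, the livers at Myc off 4 weeks were first with 0.81 ± 0.67 (n = 3), without overlap with the next group, and those at TGFα/Myc off 12 weeks last with -1.14 ± 0.53 (n = 3). For Krt8 on A_51_P242400, 6 group means lay between 0.46 and 0.90, with no order read among them because 1 Myc tumor spot was saturated. Below them were controls with 0.03 ± 0.08 (n = 3), TGFα/Myc off 4 weeks with -0.18 ± 0.23 (n = 3) and TGFα off 4 weeks with -0.22 ± 0.05 (n = 2). On A_51_P242399 controls were instead last with -0.45 ± 0.55 (n = 3), below TGFα off 4 weeks (-0.30) and TGFα/Myc off 4 weeks (-0.32). The place of controls among these groups thus differed between the probes. The genes most like Krt8 were Ctsz, Ddn and Pld1, with Pearson r of 0.70, 0.67 and 0.67. For Sox9 they were Slco3a1, Sephs2 and Cldn14 with 0.83, 0.76 and 0.75, all over 31 arrays.

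The array labelled TGFα tumor 1 is the only one of its group in the fit and enters no comparison. It read 3.21 for Cd24a, 1.18 and 0.45 for Sox9 on A_52_P577484 and A_52_P214630, 0.90 and 0.79 for Krt8, 0.50 for Spp1, 0.27 for Krt7 on A_51_P312348, 0.11 for Prom1 on A_51_P414072 and -0.18 for Krt19. Its Cd24a value was above those of 6 of the 7 Myc tumors, and its Sox9 value on A_52_P577484 was the highest of the 31 arrays. It also had the highest averages of the erythroid genes, 2.17, and of the neutrophil genes, 3.01.

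Other bile duct genes did not share 1 direction in Myc tumors. Of 24 measured, 6 were higher and 6 lower than in controls, with a median difference of -0.08. Onecut1, a transcription factor of hepatobiliary development, was lower (log2 difference -2.92), as was Aqp1, the water channel of cholangiocytes (-2.40), while Ggt1, a gamma-glutamyltransferase of fetal liver and ducts, was higher (3.26), as was Bicc1, an RNA-binding protein (2.68). After 4 weeks off, 5 of 24 were higher and 2 lower than in Myc tumors, with Onecut1 differing by 2.02 and Ggt1 by -3.28.

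Of 12 other progenitor and fetal-type genes, 4 were higher and 1 lower in Myc tumors than in controls, with a median difference of 1.04. The 4 with the smallest p were Tnfrsf12a, the TWEAK receptor that drives progenitor proliferation (2.52), Lgals3, a galectin (3.46), Igdcc4, an immunoglobulin-family membrane protein (2.77), and Fgfr2, a fibroblast growth factor receptor (-2.35). In TGFα/Myc tumors 2 of 12 were higher than in controls, Tnfrsf12a (2.79) and Tff3, a mucosal trefoil peptide (4.24), with limma adjusted p of 0.000292 and 0.0253. Among 3 other keratins of simple epithelia, Krt20 was higher in Myc tumors than in controls (2.83) and Krt18 and Krt23 did not pass. Krt20 also differed by -2.79 between 4 weeks off and Myc tumors.

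Notch signalling, in which the ligand Jagged1 acts through Rbpj to specify duct fate, lies upstream of Sox9 in bile duct development. Of 12 Notch pathway genes, 5 were higher and 2 lower in Myc tumors than in controls, with a median difference of 0.32. Hey1, a target gene, was higher (1.58) and so was the ligand gene Jag2 (0.85), while Notch1 (-1.02) and Jag1 (-0.92) were lower. At 4 weeks off, 1 of 12 was higher and 6 lower than in Myc tumors, with Hey1 at -1.37. Of 8 YAP target genes, another pathway active in duct cells, 3 were higher and 3 lower in Myc tumors, with Ctgf at 1.77 and Cyr61 at -1.02.

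Markers of hepatocytes were lower in the same tumors. Of 10 measured, 7 were lower in Myc tumors than in controls, and the list averaged -2.77 to -0.70 in Myc tumors, against -0.14 to 0.22 in controls. The part of this shift in the marker differences was not tested.

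On slide 5 every probe of Krt19, Krt7, Cd24a, Spp1 and Prom1 had net sample signals outside the range of all other arrays. Both bright Sox9 probes did so too, while the ranges of net signal overlapped for both Krt8 probes and for Sox9 on A_51_P451606. By percentile within the array, both Krt8 probes also lay above the other arrays, with 99.9 or more against at most 99.7. Both Prom1 probes overlapped by percentile, with 75.1 to 94.8 against 14.9 to 76.5 and 70.2 to 92.2 against 9.89 to 70.6. The net Cy3 signal of Krt19 was 54830 to 56570 on the 3 arrays of slide 5, against -14 to 3845 on the 31 others, and its Cy5 signal, that of the reference, was 42819 to 59081, against 33 to 2092. Krt7 on A_51_P312348 had 9333 to 15217, against 1 to 561. Cd24a had 11944 to 23897, against 25 to 6185, and Prom1 on A_51_P414072 had 733 to 6484, against -6 to 420.

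Spp1 went the other way on slide 5, with a net Cy3 signal of 71 to 188, against 971 to 48880 elsewhere, which put it at percentiles 49.1 to 59.3 of its arrays, against 89.1 to 98.5. Hepatocyte markers had a list percentile of 69.4 to 87.3 in Cy3 on slide 5, against 96.6 or more on the other arrays. The 3 measured intestinal markers had one of 98.9 to 99.7, against 71.3 to 93.7. Other lists were also above their range elsewhere, among them stellate cell and fibroblast genes (97.1 to 98.4, against 79.2 to 93.9). Other bile duct genes were too (79.6 to 83.6, against 54.9 to 76.1). Macrophage and endothelial genes lay below theirs, as hepatocyte markers did. The ratios of Krt19 on slide 5 were small, with 0.30 and -0.01 in TGFα tumors 2 and 3, with 0.07 in replicate 1 of TGFα off 4 weeks. Cd24a read -0.53, -0.56 and 0.46 and Prom1 on A_51_P414072 read -1.05, -1.48 and 1.39 in the same order. Beyond their labels, nothing was found on what was hybridised to these 3 arrays.

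**Figure D4:**
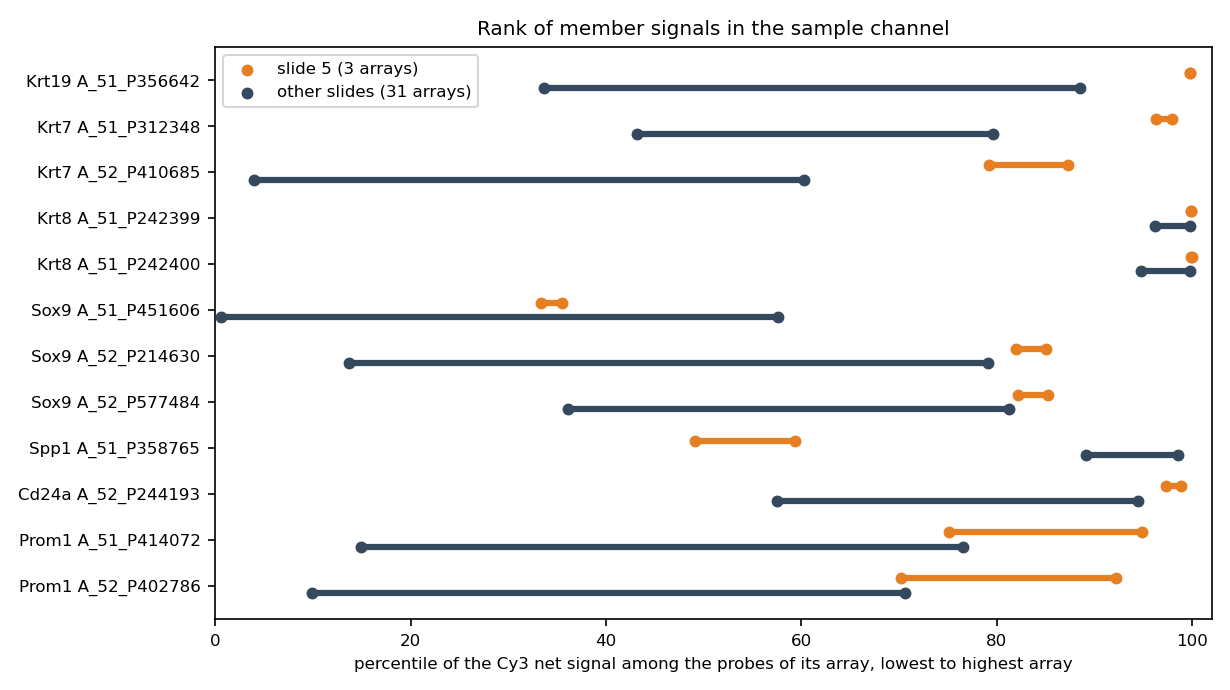
For each member probe, the bar runs from the lowest to the highest percentile that its net Cy3 signal reached among the probes of its own array, on slide 5 (3 arrays, orange) and on the other slides (31 arrays, dark). Krt19 stands at 99.8 on all 3 slide 5 arrays, against 33.7 to 88.5 elsewhere, and Spp1 at 49.1 to 59.3, against 89.1 to 98.5; the Krt8 signals on slide 5 are at the top of the scanner's range.

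Most member signals were low, and an offset that is large beside a signal compresses its ratio. The median net Cy3 signal over the 31 arrays was 93.8 for Sox9 on A_52_P577484, 94.4 for Cd24a and 24.9 for Prom1 on A_51_P414072, of the same order as the offset of 50 added before the logarithm. In the deposited log10 ratios, to which no offset was added here and which were turned to sample over reference on the log2 scale, Cd24a differed by 2.58, Sox9 by -2.02 and -1.94 and Krt8 by 0.97 and 0.83 between Myc tumors and controls. By that measure 6 of 12 member probes passed in this comparison, against 34.3% of kept probes, with Krt7 A_51_P312348 (-1.60, limma adjusted p = 0.0403) and the second Krt8 probe (adjusted p = 0.0386) added to the 4.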

How the data were processed

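Per the file headers, the authors scanned each 2-colour array with Agilent Feature Extraction (versions 9.1.3.1 and 10.7.3.1), and deposited spot intensity values per channel (mean signal, background median, flags) together with a log10 ratio of Cy5 over Cy3. A deposited table of processed values on a log2 scale, for which the submitters' processing notes name limma, served only as an alternative: its columns had correlations of 0.328 to 0.927 with log2 of Cy5 over Cy3 and medians of -0.37 to 0.45, and its centring is unknown.

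In R 4.3.3 with limma 3.58.1, background was corrected with normexp (offset 50), dyes were balanced by loess within arrays with control spots at weight 0, and values were turned to log2 of Cy3 over Cy5. Spots of a probe were averaged. Of 41174 probes, 31544 were kept, those whose Cy3 signal was well above background on 3 or more of the 31 arrays. A linear model with 1 coefficient per group was fitted with empirical Bayes moderation, and p-values were adjusted by Benjamini-Hochberg over all kept probes in each of 18 comparisons at 0.05. All comparisons that involve controls or Myc tumors share those arrays. Symbols are those of the array files. Coordinates come from the RefSeq table of GRCm38.p6.

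The fit was also run on simulated data, but no result of that run is given here, so no conclusion is drawn from it. In the arrays themselves the spread differed between groups. For Krt19 the SD of the log2 values was 1.38 in Myc tumors and 0.04 in TGFα/Myc tumors. Net Cy3 signals of Krt19 were -14 to 3845 in Myc tumors. In TGFα/Myc tumors they were 20 to 33, all below the offset added before the logarithm, which compresses ratios of low signals. The part of the offset in this contrast of SDs was not tested. The correlation within slides was estimated at 0.444. Replicate numbers were not taken as pairs: of 16 comparisons whose groups share numbers, every pair of same-numbered arrays had a correlation of deviations over 0.1 in 2, and the pair correlations ran from -0.41 to 0.41. Nothing says whether replicates differ by mouse beyond the label biological replicate, so p-values are set against the spread between these samples. That spread was estimated per probe over all groups, so the spread among tumors also enters the intervals between livers. The members, lists and tests were chosen with earlier results of these data known, and the erythroid list after its genes' values had been seen. Besides the members, the text names up to 4 genes of a list, those with the smallest p in the comparison described, and the 3 genes most like each member, except for Spp1, where they are not reported here. Array count limits the precision.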

Additional observations from a re-analysis of the deposited data

Results flagged for a closer look

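The array labelled Myc tumor 5 stood far from the other 6 Myc tumors in Sox9, with 0.44 on A_52_P214630 (gap over range 0.573, above Dixon's critical value of 0.568) and 0.91 on A_52_P577484 (0.683). These were the outlying values among 12 probes tested in the Myc tumor group, where chance gives about 1 in 20. The same array had a low Myc signal, and the part of that in its Sox9 values was not tested.

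Between TGFα/Myc tumors and Myc tumors, Sox9 differed by 0.89 (limma adjusted p = 0.0187) on A_52_P214630 and by 0.92 (adjusted p = 0.0419) on A_52_P577484, and Cd24a by -1.28 (adjusted p = 0.0171). The array labelled TGFα tumor 1, which enters no comparison, read 3.21 for Cd24a, above every control.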

How the results depend on the processing

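Cd24a passed in Myc tumors against controls, and in livers 4 and 12 weeks after c-Myc was off against Myc tumors, in each of 10 fits that left out 1 array and in 18 of 19 other settings. The exception was scan day as a fixed block, with differences of 1.01, -1.06 and -0.40 (limma adjusted p = 0.152, 0.053 and 0.832). That block left 0 calls in Myc tumors against controls and in TGFα/Myc against Myc tumors, 1 at Myc off 4 weeks and 0 at Myc off 12 weeks against Myc tumors, and could be estimated for 12 of 18 comparisons. Krt8 on A_51_P242399 turned direction, to -0.04, under that block and within scan day 1. The cause was not tested. With slide as a random block, the correlation within slides was estimated at 0.444. Under it Krt8 on A_51_P242399 missed the threshold in Myc tumors against controls (0.89, limma adjusted p = 0.0851). Sox9 also missed it on A_52_P577484 in TGFα/Myc against Myc tumors (1.11, 0.0567). On A_52_P214630 Sox9 missed it at Myc off 12 weeks against Myc tumors (0.77, 0.0809).

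Leaving out 1 array gave 2 to 5 member calls in Myc tumors against controls, 0 to 4 in TGFα/Myc against Myc tumors, 2 to 5 at Myc off 4 weeks and 3 to 6 at Myc off 12 weeks against Myc tumors, 0 to 2 at Myc off 12 weeks against controls, 0 to 1 at TGFα/Myc off 4 weeks against tumors, 0 to 3 for each difference of responses, and 0 in the other comparisons. The 2 calls at Myc off 12 weeks against controls came without control 1 or without replicate 3 of the treated livers. Without control 3, 2 calls remained in Myc tumors against controls. Without Myc off 4 weeks replicate 1, 2 remained at 4 weeks. Without TGFα/Myc tumor 2 or 3, 0 remained against Myc tumors, and without tumor 2 TGFα/Myc off 4 weeks gained 1. Without Myc tumor 5 the differences of responses had 3 calls each. Without Myc tumor 3 the one at 12 weeks had 1, and without Myc off 12 weeks replicate 3 it had 2.

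With the replicate block, which the pairing check did not favour, Myc off 12 weeks against Myc tumors had 7 calls and the differences of responses had 4 at 4 weeks and 3 at 12 weeks. In Myc tumors against controls the replicate block gave 0.84 for Krt8 on A_51_P242399 (limma adjusted p = 0.176).

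Fitting only the groups compared left 2 calls in Myc tumors against controls, 0 in TGFα/Myc against Myc tumors and 1 at Myc off 4 weeks. The sample channel alone left 0 in TGFα/Myc against Myc tumors and 2 at Myc off 4 weeks, with 1 in the response difference at 4 weeks. That response difference also had 1 call with no background subtraction, with the deposited ratios and with the deposited processed table, under which TGFα/Myc against Myc tumors kept a count of 1. The deposited ratios gave 1 call at TGFα/Myc off 4 weeks against tumors. With 1 probe per gene, Myc off 12 weeks had 2. The response difference at 12 weeks had 1 call under the stricter filter and 1 with a trended, robust prior. All 34 arrays gave 1 call in TGFα/Myc against Myc tumors and 1 in TGFα 12 against 4 weeks. Without both tumors of low Myc signal, TGFα/Myc 12 against 4 weeks had 1 call and the response differences had 3 and 2. Array weights gave 4 and 1 calls at TGFα/Myc off 4 and 12 weeks against tumors, 2 at Myc off 12 weeks, 1 at TGFα/Myc off 4 weeks and 3 at TGFα off 4 weeks against controls, 3, 3 and 1 between 12 and 4 weeks for Myc, TGFα/Myc and TGFα, and 2 and 2 for the response differences. For the settings of this section the share of all kept probes called was not computed, except for the deposited ratios in Myc tumors against controls. A gain or loss of calls is therefore not read as a result about the members.

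Signals near background limit Prom1, the third Sox9 probe and the dimmer Krt7 probe. Groups of 2 or 3 arrays limit every comparison, also those that include Myc tumors.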
